A study of Mus musculus with 4 samples.

Results

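The genes of the translation initiation factors (Eif symbols) and elongation factors (Eef symbols) were followed across 4 RNA-seq libraries of mouse bone marrow-derived macrophages. Members were the protein-coding genes whose symbol begins with Eif or Eef and a digit, without the eIF2 kinases named Eif2ak, which gave 63 of 38087 genes. Of these, 61 reached a mean of 20 normalized counts in each pair of libraries compared, and Eef1a2 and Eif4e1b did not. The cells came from C57BL/6 mice aged 6 to 8 weeks and were grown for 5 to 7 days with 30% L929-conditioned medium. One library was made from unexposed macrophages (labelled WT). The other 3 came from macrophages exposed for 16 h to extracellular vesicles (EVs, membrane particles released by cells) of Beas2B, a human lung epithelial cell line. The labels give the EVs as transfected with a scrambled RNA as control (here called scrambled EV), with a mimic of miR-17 (EV-miR-17) or with a mimic of miR-93 (EV-miR-93). Each library pooled the RNA of 4 biological replicates, so every group is 1 library, the spread between cultures was not measured and no test was possible. All ratios therefore compare libraries and not conditions. Their 95% exact intervals cover counting error only.

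Initiation begins when a ternary complex of eIF2, GTP and initiator tRNA joins the small ribosomal subunit with eIF1, eIF1A, eIF3 and eIF5. The cap complex eIF4F (the cap binder eIF4E, the scaffold eIF4G and the helicase eIF4A) then brings in the mRNA, the subunit scans to a start codon, and eIF5B joins the large subunit. In elongation eEF1A delivers aminoacyl-tRNA, the eEF1B complex recharges eEF1A with GTP, and eEF2 moves the ribosome along. Macrophages are known to adjust this machinery during activation through phosphorylation of eIF2, through the eIF4E-binding proteins and through eEF2 kinase, changes that mRNA counts do not measure.

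The mimics named in the labels belong to the miR-17 family, and the mature mouse sequences from RefSeq (build GRCm38.p6) are shown because both share 1 seed, bases 2 to 8, in capitals. The miR-17-5p sequence lies at chr14:115043684-115043706 on the + strand and the miR-93-5p sequence at chr5:138165574-138165596 on the − strand. The sequences of the mimics themselves are not given in the labels.
mmu-miR-17-5p: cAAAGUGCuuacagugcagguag
mmu-miR-93-5p: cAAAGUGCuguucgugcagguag
The complement of the seed, GCACTTT, was sought on the transcribed strand of the longest annotated 3' UTR (GENCODE M21) of each member. It was found 12 times in 9 of the 61 tested members (14.8%), beside 14.8% of the 12126 protein-coding genes tested in EV-miR-17 against unexposed. The 9 were Eif5b, Eif4e2, Eif4g2, Eif4h, Eif3j1, Eif5a2, Eif2c1, Eif2c2 and Eif2c3. Of the 12 matches, 5 are shown, in capitals, with the bases around them, because they lie in members with a value past the threshold below or in the most abundant one, Eif4g2. None of the 12 is followed by an A, the base that makes such a match 8 letters long.
Eif5b, first match, chr1:38052938-38052944 (+): tgacaaatttgGCACTTTtttgaaaagaa
Eif5b, second match, chr1:38053019-38053025 (+): atcactatcatGCACTTTgcaaatacctc
Eif3j1, chr2:122054255-122054261 (+): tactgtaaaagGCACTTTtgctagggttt
Eif4g2, chr7:111072325-111072331 (−): actgtagagatGCACTTTgctcagtaata
Eif2c3, 1 of 3 matches, chr4:126343700-126343706 (−): cagggaactttGCACTTTgtaagtcatga
Members with a match were not lower in the mimic libraries by the threshold used below. In EV-miR-17 against scrambled EV 3 of the 9 were higher (Eif5b, Eif3j1 and Eif2c3) and 0 lower, beside 12.8% and 5.85% of all tested protein-coding genes with a match. In EV-miR-93 against scrambled EV 2 were higher and 0 lower, beside 13.7% and 6.92%. Against unexposed, 0 of the 9 were higher or lower in either mimic library. After the GC correction described below, 1 of the 9 (Eif5b) was still higher in EV-miR-17 against scrambled EV, and 1 (Eif2c3) was lower in EV-miR-93 against unexposed. The median log2 ratio in EV-miR-17 against scrambled EV was 0.24 for the 9 with a match and 0.10 for the members without. The GC correction made these 0.10 and 0.07. Over all tested protein-coding genes the median in that pair was 0.001 with a match and −0.02 without. In EV-miR-93 against scrambled EV the members' medians were 0.16 with a match and 0.08 without, and −0.003 and 0.08 after the correction. Against unexposed, the corrected medians were also lower with a match than without. They were 0.03 and 0.07 in EV-miR-17, and −0.03 and 0.04 in EV-miR-93. The median GC content was 41.7% for the members with a match and 47.0% for those without.

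Libraries held 17815250 reads in genes (scrambled EV) to 22607247 (EV-miR-17), and the members together took 0.990 to 1.05% of them. Scrambled EV stood apart in read length: the median of aligned bases per read over all genes was 114 there and 96.4 to 103 in the others. Of 8 macrophage markers, 7 matched by symbol, and their summed normalized counts were lowest in EV-miR-17 (557197) and highest in scrambled EV (688419). Lyz2 alone had 596249 of the latter, and Cd68, Itgam and Mertk were lower in scrambled EV than in unexposed. Epithelial markers summed to 9.48 to 14.2 and erythroid markers to 5.27 to 11.54, while fibroblast, mast cell, dendritic cell and B cell markers summed to at most 550.1 (B cell, unexposed). The neutrophil markers summed to 996 in unexposed, 720.3 in scrambled EV, 1139 in EV-miR-17 and 1108 in EV-miR-93, the osteoclast markers to 2338, 1415, 1774 and 2031, and the T and NK cell markers, mostly Il7r, to 2037, 1648, 2200 and 2450, all lowest in scrambled EV. The neutrophil sum was mostly S100a8 (576, 450, 666 and 664) and Lcn2 (413, 259, 469 and 438), while S100a9, Ly6g and Mpo had at most 8.20. The B cell sum was mostly Cd79b (530 in unexposed). The osteoclast sum was mostly Acp5 (1981, 1025, 1474 and 1649), while Ctsk was highest in scrambled EV (352, 388, 294 and 376). No listed marker that matched was at 0 in all 4 libraries. Their part in the values below was not tested, and in pooled RNA fewer cells of a type and less RNA per cell cannot be told apart.

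Set per kilobase of exon, the levels of the members differed by orders of magnitude, and the carrier and the translocase of elongation were above all initiation factors in every library. Eef1a1, the main carrier of aminoacyl-tRNA (chromosome 9, 78478449 to 78489151), had normalized counts per kb of exon of 19041 in unexposed, 19563 in scrambled EV, 19233 in EV-miR-17 and 19644 in EV-miR-93. Eef2, the translocase (chromosome 10, 81176631 to 81182507), had 11857 in unexposed, 11174 in scrambled EV, 10134 in EV-miR-17 and 10096 in EV-miR-93. Of the reads of all members, Eef1a1 took 22.5% and Eef2 18.6% in unexposed. The next members by mean level per kb of exon were Eif4g2 (2121), Eif3b (2084), Eif5a (1903), Eif3c (1492), Eif4g1 (1434), Eif4a1 (1415), Eef1b2 (1239) and Eif1 (1154). At the other end stood Eif5a2 (20.9) and Eef1a2 (2.75), the isoform of eEF1A known from muscle and neurons. Eif4e1b, an eIF4E-like gene known from oocytes, had 1 read in EV-miR-17 and 0 in the other libraries, where a count of 0 allows up to 3 reads or 3.51 normalized counts in scrambled EV. The deposited gene lengths are whole spans, and whether reads in introns were counted is not given in the sources used here. If they were, genes with abundant intron reads are overstated per kb of exon.

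**Figure D1:**
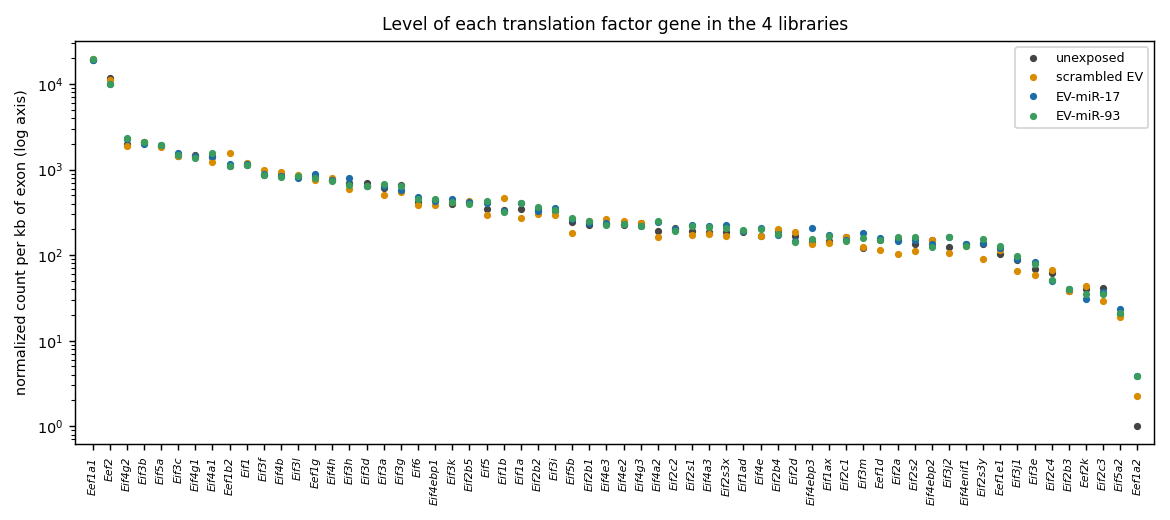
Normalized count per kb of exon (log axis) of each member with a mean above 1, ordered by mean level, with 1 point per library and no error bars since each group is 1 library. Eef1a1 and Eef2 sit above all other members in each library, and for most members the 4 points nearly coincide.

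None of the 61 tested members differed 2-fold between any 2 of the 4 libraries, so a smaller threshold was used. A gene was called higher or lower where the normalized counts stood at 5 to 4 or more (a log2 ratio of 0.32 or more in size), the mean of the pair reached 20 normalized counts and the 95% interval left out 1. By this rule 25 of the 61 tested members were called in at least 1 of the 6 pairs and 36 in none. The share of all tested genes called in at least 1 pair was not computed. Whether 25 of 61 is many or few is therefore not known. Eef1a2, which was too low to be tested at 2 to 9 reads per library, had 2.11 normalized counts in unexposed, 4.68 in scrambled EV, 7.99 in EV-miR-17 and 8.15 in EV-miR-93. Among all tested genes, 0.490% were past 2-fold higher and 0.791% lower in scrambled EV against unexposed. The shares higher and lower were 0.292% and 0.182% in EV-miR-17 against unexposed, and 0.357% and 0.182% in EV-miR-93 against unexposed. They were 1.05% and 0.456% in EV-miR-17 against scrambled EV, 0.996% and 0.462% in EV-miR-93 against scrambled EV, and 0.162% and 0.103% in EV-miR-93 against EV-miR-17.

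With EVs carrying scrambled RNA, the share of members lower was near that of all tested genes, and fewer were higher. In scrambled EV against unexposed 7 of 61 members were lower, beside 8.70% of all tested genes, and 2 were higher, beside 8.22%. The lower ones were Eif2s3y, Eif2a, Eif2c3, Eif3j1, Eif5b, Eef1d and Eif1a, and the higher ones Eef1b2 and Eif1b. The median log2 ratio of the members was −0.05, against 0.00 for all tested genes, with 24 members above 0 and 37 below.

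With EVs carrying miR-17 or miR-93 mimics, the shares of members higher than in unexposed cells were near those of all tested genes. In EV-miR-17 against unexposed 4 members (6.56%) were higher, beside 4.90% of all tested genes, namely Eif4ebp3, Eif3m, Eif3j2 and Eif4a2. In the same pair 1 member (1.64%) was lower (Eef2k), beside 4.12%. In EV-miR-93 against unexposed 3 (4.92%) were higher (Eif3j2, Eif3m and Eif4a2), beside 5.12%, and 0 lower, beside 4.69%. The median log2 ratios of the members were 0.05 and 0.04, and those of all tested genes were both −0.01. These 3 comparisons share the unexposed library.

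Set against scrambled EV, which the labels make the control for the mimics, the mimic libraries had more members higher. In EV-miR-17 against scrambled EV 19 of 61 were higher, beside 11.9% of all tested genes, and 5 lower, beside 10%. In EV-miR-93 against scrambled EV 15 were higher, beside 12.1%, and 5 lower, beside 9.52%. The members' median log2 ratios were 0.11 and 0.09, and −0.02 over all tested genes in both. Both comparisons share the scrambled EV library, whose own values enter with opposite sign in scrambled EV against unexposed, so the 3 sets of calls are not separate measurements. Between the mimic libraries themselves, EV-miR-93 against EV-miR-17, 0 members were higher, beside 1.92%, and 1 was lower (Eif4ebp3), beside 2.14%. The interquartile range of the members' log2 ratios ran from −0.06 to 0.05 in that pair.

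**Figure D2:**
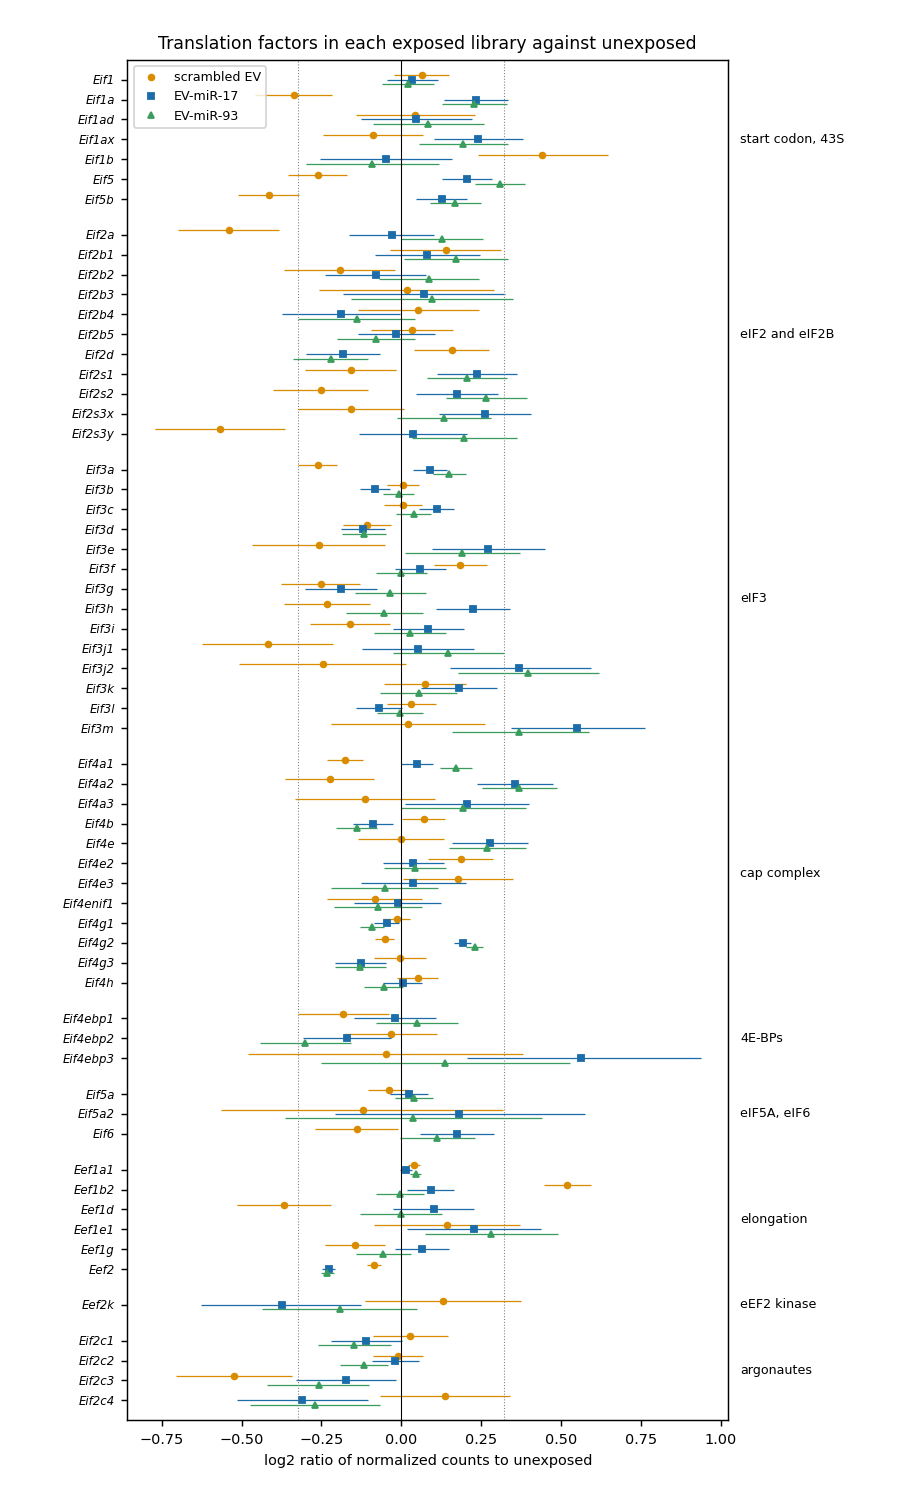
Log2 ratio of normalized counts to unexposed for the 61 tested members in the 3 exposed libraries, grouped by role, with 95% counting intervals as bars and dotted lines at the threshold. For Eif2a, Eif2s3y, Eif5b and Eif1a the scrambled EV points lie left of the dotted line and the mimic points do not; Eef1b2 and Eif1b in scrambled EV lie to its right.

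Scrambled EV was the lowest library for Eif5b, Eif1a, Eif1ax and Eif5 among the 7 factors of start codon recognition and the scanning complex. It was the highest for Eif1b and, by a small margin, for Eif1. Eif5b, the GTPase that joins the subunits (chromosome 1, 37998010 to 38055579), showed 2381 normalized counts in unexposed, 1785 in scrambled EV, 2598 in EV-miR-17 and 2675 in EV-miR-93. Scrambled EV was the lowest library, at 0.750 (95% interval 0.702 to 0.8004) times unexposed, and the mimic libraries were slightly above unexposed, at 1.09 and 1.12 times. Relative to scrambled EV, Eif5b was 1.46 (1.37 to 1.55) times as high in EV-miR-17 and 1.499 times as high in EV-miR-93. Its 3' UTR holds 2 of the matches shown above. Eif1a, which with eIF1 keeps the ribosome scanning (chromosome 18, 46597704 to 46610225), showed 1443 normalized counts in unexposed, 1142 in scrambled EV, 1697 in EV-miR-17 and 1690.1 in EV-miR-93 and again was lowest in scrambled EV. Its ratio of scrambled EV to unexposed was 0.791 (0.728 to 0.860), and after the GC correction described below it was a log2 ratio of −0.29, short of the threshold, as in the authors' log2 values (−0.23). Eif1ax, the X-linked gene for the same protein, had 772 in unexposed, 726 in scrambled EV, 913 in EV-miR-17 and 884 in EV-miR-93, and it was called only in EV-miR-17 against scrambled EV (ratio 1.26, 95% interval 1.14 to 1.39). That call was lost with the GC correction (log2 ratio 0.18) and in the authors' log2 values (0.19). Eif5, which triggers GTP hydrolysis by eIF2 (chromosome 12, 111538101 to 111546753), showed 2382 normalized counts in unexposed, 1986 in scrambled EV, 2747 in EV-miR-17 and 2949 in EV-miR-93. Its ratio to scrambled EV was 1.48 (1.40 to 1.58) in EV-miR-93 and 1.38 (1.30 to 1.47) in EV-miR-17.

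Eif1 and Eif1b, 2 genes for near-identical start codon selection factors, were both highest in scrambled EV, but only Eif1b was called. Eif1, the more abundant (chromosome 11, 100319885 to 100322096), showed 2371 normalized counts in unexposed, 2478 in scrambled EV, 2429 in EV-miR-17 and 2406 in EV-miR-93, within 1.05-fold of unexposed in each exposed library. Eif1b (chromosome 9, 120492606 to 120495327) had 385 in unexposed, 522 in scrambled EV, 372 in EV-miR-17 and 361 in EV-miR-93, and scrambled EV was the highest library. Its ratio was 1.36 (95% interval 1.18 to 1.56) in scrambled EV against unexposed and 0.692 (0.603 to 0.793) in EV-miR-93 against scrambled EV. The ratio of Eif1b to Eif1 per kb of exon was 0.303 in unexposed, 0.393 in scrambled EV, 0.285 in EV-miR-17 and 0.280 in EV-miR-93. Eif1ad, which carries an eIF1A-like domain, was called in no pair.

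Of the 11 members of eIF2 and the factors around it, 5 were higher in EV-miR-17 against scrambled EV and 1 lower. Of all tested genes, 11.92% were higher and 10.04% lower in that pair. In EV-miR-93 against scrambled EV 4 of the 11 were higher and 1 lower, beside 12.15% and 9.52%. None of the 5 higher calls in EV-miR-17 was kept with the GC correction. Of the 4 in EV-miR-93 only Eif2a kept its call, while Eif2b2 was added. The lower call, of Eif2d, was kept only in EV-miR-93. Eif2s1, Eif2s2 and the gamma subunit genes Eif2s3x and Eif2s3y encode the 3 subunits of eIF2. Eif2s1, the alpha subunit that stress kinases phosphorylate (chromosome 12, 78861819 to 78887010), showed 940.0 normalized counts in unexposed, 842 in scrambled EV, 1108 in EV-miR-17 and 1084 in EV-miR-93, and Eif2s2, the beta subunit (chromosome 2, 154871410 to 154892935), had 908 in unexposed, 762 in scrambled EV, 1025 in EV-miR-17 and 1093 in EV-miR-93. For both, scrambled EV was lowest and both mimic libraries were above unexposed. Their ratios of EV-miR-17 to scrambled EV were 1.32 (95% interval 1.20 to 1.44) and 1.34 (1.22 to 1.48). With the GC correction the log2 ratios of Eif2s1 and Eif2s2 fell to 0.13 and 0.16 and were no longer called.

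The gamma subunit has 1 gene on X and 1 on Y, and scrambled EV lay further below unexposed for the Y gene. Eif2s3y (chromosome Y, 1010543 to 1028847), the gene with the lowest GC content of all members at 34.9%, had 561 normalized counts in unexposed, 378 in scrambled EV, 575 in EV-miR-17 and 643 in EV-miR-93. Its ratio was 0.675 (95% interval 0.586 to 0.776) in scrambled EV against unexposed, 1.52 (1.33 to 1.74) in EV-miR-17 against scrambled EV and 1.70 (1.49 to 1.94) in EV-miR-93 against scrambled EV, the largest log2 ratio of any tested member in these data (0.76). Eif2s3x (chromosome X, 94188707 to 94212862) had 713 in unexposed, 639 in scrambled EV, 855 in EV-miR-17 and 783 in EV-miR-93, and its ratio of scrambled EV to unexposed was 0.896 (0.799 to 1.005). The 2 genes share much of their coding sequence, so reads between them are uncertain. The sex of the mice pooled for each library is not given here, and its part in the values of the Y gene was not tested. The ratio of Eif2s3y to Eif2s3x per kb of exon was 0.720 in unexposed, 0.542 in scrambled EV, 0.616 in EV-miR-17 and 0.752 in EV-miR-93. With the GC correction the log2 ratios of Eif2s3y became −0.36, 0.20 and 0.32, and both calls against scrambled EV were lost.

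The start of both gamma subunit genes holds a pyrimidine run of the kind known as a TOP motif, which in many translation genes makes translation depend on mTORC1. A run was defined as a C followed by at least 4 further pyrimidines that begins within 5 bases of a RefSeq start, read on the transcribed strand. It was present in 12 of the 48 members matched to RefSeq promoters (25%) and in 21.2% of 27025 genes. The 2 gamma genes and Eif3f are shown, since theirs are the 3 longest runs among the members, with the run in capitals.
Eif2s3x, chrX:94212632-94212661 (−): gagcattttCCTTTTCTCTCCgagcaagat
Eif2s3y, chrY:1010585-1010614 (+): ggccacagccaCTTCCTTCTTTCgtgagca
Eif3f, chr7:108934405-108934434 (+): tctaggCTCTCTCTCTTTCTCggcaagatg
Eif3f had 2494 normalized counts in unexposed, 2834 in scrambled EV, 2600.2 in EV-miR-17 and 2494 in EV-miR-93 and was called in no pair.

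Eif2a, a separate factor that can bring in initiator tRNA and is not the alpha subunit of eIF2 (chromosome 3, 58525821 to 58557501), was low in scrambled EV only. It had 920.0 normalized counts in unexposed, 632 in scrambled EV, 901 in EV-miR-17 and 1005 in EV-miR-93. The ratio was 0.687 (95% interval 0.616 to 0.766) in scrambled EV against unexposed, 1.09 (0.999 to 1.19) in EV-miR-93 against unexposed and 1.59 (1.43 to 1.76) in EV-miR-93 against scrambled EV. Its span overlaps Serp1, a far more abundant gene on the other strand with 11431 to 17466 reads, so its count is uncertain. Eif2d, a factor of reinitiation and ribosome recycling (chromosome 1, 131153181 to 131187658), had 1235 in unexposed, 1377 in scrambled EV, 1088 in EV-miR-17 and 1059 in EV-miR-93 and overlaps Rassf5. It was lower in both mimic libraries than in scrambled EV, with ratios of 0.790 (0.729 to 0.856) and 0.769 (0.709 to 0.835). The call of Eif2d in EV-miR-17 was lost with TMM scaling, with total counts, with the GC correction and in the authors' log2 values. Eif2a was also higher in EV-miR-17 against scrambled EV (log2 ratio 0.51), a call lost with the GC correction (0.25).

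Of the 5 subunit genes of eIF2B, the exchange factor that reloads eIF2 with GTP, none was called in any pair. Eif2b5, the catalytic subunit and the highest of the group per kb of exon (418), showed 1096 normalized counts in unexposed, 1122 in scrambled EV, 1084 in EV-miR-17 and 1037 in EV-miR-93. Eif2b1 had 581 in unexposed, 639 in scrambled EV, 614 in EV-miR-17 and 654 in EV-miR-93. Eif2b2 had 652 in unexposed, 570.4 in scrambled EV, 617 in EV-miR-17 and 693 in EV-miR-93, with the lowest value in scrambled EV. Eif2b3 and Eif2b4 had 247 to 263 and 443 to 524 normalized counts across the 4 libraries. Their ratios to unexposed ran from 0.874 (Eif2b2 in scrambled EV) to 1.13 (Eif2b1 in EV-miR-93).

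The 14 genes of eIF3, the large complex that holds the scanning subunit together, included members called in no pair and members higher in the mimic libraries than in scrambled EV. In EV-miR-17 against scrambled EV 6 of 14 were higher and 0 lower, beside 11.92% and 10.04% of all tested genes. In EV-miR-93 against scrambled EV 5 were higher and 0 lower, beside 12.15% and 9.52%. With the GC correction only Eif3j2 kept its higher call in EV-miR-17, and only Eif3j1 and Eif3j2 kept theirs in EV-miR-93. Of the core subunits, Eif3b (chromosome 5, 140419305 to 140443358) showed 7078 normalized counts in unexposed, 7099.6 in scrambled EV, 6685 in EV-miR-17 and 7036 in EV-miR-93, and Eif3c had 5099.5 in unexposed, 5116 in scrambled EV, 5508 in EV-miR-17 and 5236 in EV-miR-93. Both stayed within 1.08-fold between any 2 libraries. Eif3a, the other large core subunit, had 5356 in unexposed, 4467 in scrambled EV, 5701 in EV-miR-17 and 5945 in EV-miR-93 and was 1.33 (95% interval 1.28 to 1.39) times as high in EV-miR-93 as in scrambled EV, a log2 ratio of 0.41 that became 0.11 with the GC correction. Eif3d, Eif3f, Eif3g, Eif3i, Eif3k and Eif3l were called in no pair.

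Eif3m, a subunit of the same complex (chromosome 2, 104999656 to 105017080), showed 317 normalized counts in unexposed, 322 in scrambled EV, 465 in EV-miR-17 and 410.1 in EV-miR-93, and here both mimic libraries stood above both others. Its ratio to unexposed was 1.47 (95% interval 1.27 to 1.69) in EV-miR-17 and 1.29 (1.11 to 1.501) in EV-miR-93. Eif3m overlaps Ccdc73 on the other strand, whose reads were also highest in EV-miR-17 and next in EV-miR-93 (338 in unexposed, 320 in scrambled EV, 574 in EV-miR-17 and 500 in EV-miR-93). Without strand information the reads of the 2 genes cannot be told apart. With the GC correction Eif3m was still called in EV-miR-17 against unexposed (log2 ratio 0.44) and not in EV-miR-93 against unexposed (0.24), and both of its calls against scrambled EV were lost (0.29 and 0.10).

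Eif3j1 and Eif3j2 encode the loosely bound subunit that sits near the decoding site. Exons make up 2379 of the 2419 bases of Eif3j2, and the split of reads between the 2 genes is uncertain. Eif3j1 (chromosome 2, 122028546 to 122056598) showed 513 normalized counts in unexposed, 384 in scrambled EV, 532 in EV-miR-17 and 569 in EV-miR-93 and was lowest in scrambled EV, at 0.748 (95% interval 0.649 to 0.863) times unexposed. Eif3j2 (chromosome 18, 43475418 to 43477836) had 297 in unexposed, 251 in scrambled EV, 384 in EV-miR-17 and 391 in EV-miR-93. Its ratio to unexposed was 0.843 (0.703 to 1.01) in scrambled EV, an interval that includes 1, 1.29 (1.11 to 1.51) in EV-miR-17 and 1.32 (1.13 to 1.53) in EV-miR-93. With the GC correction its log2 ratios to unexposed were 0.27 and 0.29 in the mimic libraries, short of the threshold, while the ratio to scrambled EV was still called in both. Eif3e (chromosome 15, 43250040 to 43282736) showed 468 normalized counts in unexposed, 391 in scrambled EV, 565 in EV-miR-17 and 534 in EV-miR-93 and a ratio of EV-miR-17 to scrambled EV of 1.45 (1.26 to 1.65). Eif3h had 1113 in unexposed, 947 in scrambled EV, 1299 in EV-miR-17 and 1073 in EV-miR-93 and was called only in that same pair (ratio 1.37, 95% interval 1.26 to 1.496). With the GC correction neither Eif3e nor Eif3h was called.

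**Figure D3:**
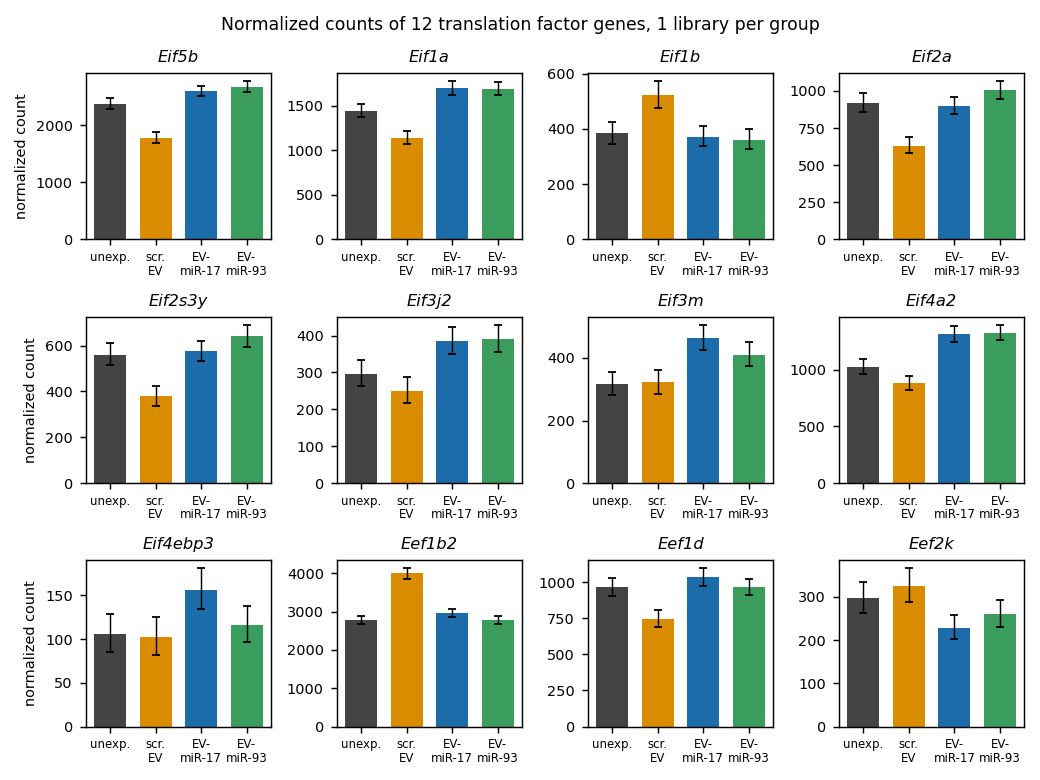
Normalized counts of 12 members in the 4 libraries (1 library per group), with bars from 0 and 95% exact Poisson counting intervals. Scrambled EV is the lowest bar for Eif5b, Eif1a, Eif2a, Eif2s3y and Eef1d and the highest for Eif1b and Eef1b2, whereas the mimic libraries are the 2 highest bars for Eif3m, Eif3j2 and Eif4a2.

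Of all tested genes, 4.12% to 8.70% were called per direction in an exposed library against unexposed. Of the 12 tested genes of the cap complex, 11 were called neither higher nor lower against unexposed in any library. The exception was Eif4a2, a copy of the helicase eIF4A (chromosome 16, 23107444 to 23114136), with 1027 normalized counts in unexposed, 879.5 in scrambled EV, 1314 in EV-miR-17 and 1327 in EV-miR-93. Both mimic libraries stood above both others, with ratios to unexposed of 1.28 (95% interval 1.18 to 1.39) and 1.29 (1.19 to 1.40) and to scrambled EV of 1.49 (1.37 to 1.63) and 1.51 (1.38 to 1.65). The log2 ratios to unexposed were 0.28 and 0.29 with the GC correction, short of the threshold, and 0.45 and 0.47 against scrambled EV, still called. Its span contains snoRNAs with at most 19 reads each and overlaps Rfc4. Eif4a1, the main helicase gene (chromosome 11, 69666936 to 69672423), had 6064 in unexposed, 5369 in scrambled EV, 6269.7 in EV-miR-17 and 6826 in EV-miR-93, and it was called only in EV-miR-93 against scrambled EV (ratio 1.27, 95% interval 1.23 to 1.32). The ratio of Eif4a2 to Eif4a1 per kb of exon was 0.138 in unexposed, 0.133 in scrambled EV, 0.170 in EV-miR-17 and 0.158 in EV-miR-93. A processed copy, Eif4a-ps4, had 15422 to 19956 reads, more than Eif4a1 itself (4584 to 7540), so the split of reads between them is uncertain.

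None of the 3 scaffold genes passed the threshold in any pair. Per kb of exon, Eif4g2 had the highest mean over the 4 libraries of the initiation factors, although Eif3b was above it in unexposed and scrambled EV. Eif4g2, which lacks the eIF4E-binding site (chromosome 7, 111067985 to 111083030), showed 20154 normalized counts in unexposed, 19434 in scrambled EV, 23028 in EV-miR-17 and 23622 in EV-miR-93. Its ratio to unexposed was 1.14 (95% interval 1.12 to 1.16) in EV-miR-17 and 1.17 (1.15 to 1.19) in EV-miR-93, with intervals above 1 but short of the threshold. Its 3' UTR holds a match to the seed. Eif4g1 had 10750.2 in unexposed, 10640.0 in scrambled EV, 10416 in EV-miR-17 and 10086 in EV-miR-93 and Eif4g3 2646 in unexposed, 2639 in scrambled EV, 2423 in EV-miR-17 and 2422 in EV-miR-93, and neither was called in any pair. The ratio of Eif4g2 to Eif4g1 per kb of exon was 1.35 in unexposed, 1.31 in scrambled EV, 1.59 in EV-miR-17 and 1.68 in EV-miR-93.

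Among the cap binders, Eif4e (chromosome 3, 138526191 to 138557599) showed 1018 normalized counts in unexposed, 1018 in scrambled EV, 1234 in EV-miR-17 and 1226 in EV-miR-93, with ratios to unexposed of 0.9997 (95% interval 0.911 to 1.10), 1.21 (1.12 to 1.32) and 1.20 (1.11 to 1.31) in scrambled EV, EV-miR-17 and EV-miR-93, under the threshold. Eif4e2, a cap binder that represses translation, had 1673 in unexposed, 1903 in scrambled EV, 1718 in EV-miR-17 and 1724 in EV-miR-93, highest in scrambled EV, and Eif4e3 had 584 in unexposed, 661 in scrambled EV, 599 in EV-miR-17 and 563 in EV-miR-93. Neither Eif4e2 nor Eif4e3 was called. The helicase partners Eif4b and Eif4h, the eIF4E transporter gene Eif4enif1 and Eif4a3, the eIF4A-like core of the exon junction complex, were called in no pair. Eif4b had 4029 in unexposed, 4228 in scrambled EV, 3790.2 in EV-miR-17 and 3657 in EV-miR-93 and Eif4h 4227 normalized counts in unexposed, 4379 in scrambled EV, 4240.2 in EV-miR-17 and 4068 in EV-miR-93.

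Of the 3 genes of the eIF4E-binding proteins, which hold eIF4E away from eIF4G until mTORC1 phosphorylates them, 1 was called. Eif4ebp1, the highest per kb of exon (431), showed 969.5 normalized counts in unexposed, 855 in scrambled EV, 956 in EV-miR-17 and 1003 in EV-miR-93 and Eif4ebp2 880.0 in unexposed, 859.6 in scrambled EV, 782 in EV-miR-17 and 714 in EV-miR-93, and neither was called. Eif4ebp3 (chromosome 18, 36664060 to 36665917) had 105 in unexposed, 102 in scrambled EV, 156 in EV-miR-17 and 116 in EV-miR-93, highest in EV-miR-17. The ratio was 1.48 (95% interval 1.15 to 1.91) in EV-miR-17 against unexposed, 1.53 (1.18 to 2.01) in EV-miR-17 against scrambled EV and 0.742 (0.586 to 0.937) in EV-miR-93 against EV-miR-17, the only call of any member between the mimic libraries. The interval is wide because the gene has few reads, and its span lies within that of Ankhd1 on the same strand, with 2981 to 3630 reads, so the count is uncertain. All 3 calls were kept after the GC correction.

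Eif5a, the hypusine-carrying factor that helps ribosomes past difficult peptide bonds, had 4503 normalized counts in unexposed, 4380.1 in scrambled EV, 4576 in EV-miR-17 and 4631 in EV-miR-93, and Eif6, which keeps free large subunits apart from small ones, had 1138 in unexposed, 1033 in scrambled EV, 1284 in EV-miR-17 and 1230.3 in EV-miR-93. Neither was called, and neither was Eif5a2, with 103 in unexposed, 94.9 in scrambled EV, 117 in EV-miR-17 and 106 in EV-miR-93. The pseudogene Eif5al3-ps held 3049 to 3449 reads, so that the count of Eif5a may be shared with it.

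In elongation, the carrier was close to unexposed, and the translocase lay below unexposed in each exposed library, short of the threshold. The exchange factor complex was not uniform. Eef1a1 had 47470.1 normalized counts in unexposed, 48771 in scrambled EV, 47948 in EV-miR-17 and 48973 in EV-miR-93, within 1.03-fold between any 2 libraries, and Eef2 had 39414 in unexposed, 37143 in scrambled EV, 33684 in EV-miR-17 and 33558 in EV-miR-93. Eef2 had ratios to unexposed of 0.942 (95% interval 0.928 to 0.957) in scrambled EV, 0.855 (0.843 to 0.867) in EV-miR-17 and 0.851 (0.839 to 0.864) in EV-miR-93. Those intervals lie below 1 and short of the threshold. With the highest GC content of all members, 56.6%, Eef2 is also at the far end of the GC range. The annotated miRNA mir-703 inside Eef1a1 had 3985 to 5062 reads of its own, which could also be reads of Eef1a1.

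The eEF1B complex consists of the exchange factors encoded by Eef1b2 and Eef1d and the scaffold Eef1g. Eef1b2 (chromosome 1, 63176825 to 63180486) showed 2791 normalized counts in unexposed, 3998 in scrambled EV, 2973 in EV-miR-17 and 2783 in EV-miR-93, so scrambled EV was the highest library, and the other 3 lay within 1.07-fold. Eef1d (chromosome 15, 75894796 to 75909556) had 965 in unexposed, 748 in scrambled EV, 1036 in EV-miR-17 and 965 in EV-miR-93, and scrambled EV was the lowest. Eef1g had 2189.9 in unexposed, 1982 in scrambled EV, 2289.6 in EV-miR-17 and 2106 in EV-miR-93 and was not called. In scrambled EV against unexposed the ratio was 1.43 (95% interval 1.36 to 1.51) for Eef1b2 and 0.775 (0.700 to 0.859) for Eef1d, opposite in direction within 1 complex. Both calls were kept after the GC correction. In the authors' log2 values, however, Eef1d had a log2 ratio of −0.06 in that pair, and the ratios of Eef1b2 to scrambled EV changed sign, from −0.43 to 0.097 in EV-miR-17 and from −0.52 to 0.012 in EV-miR-93. Eef1e1, which belongs to the multi-tRNA synthetase complex, had 340.4 in unexposed, 376 in scrambled EV, 398 in EV-miR-17 and 414 in EV-miR-93 and was called in no pair.

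Eef2k, the kinase that inactivates eEF2 (chromosome 7, 120842831 to 120907219), showed 297 normalized counts in unexposed, 326 in scrambled EV, 229 in EV-miR-17 and 259.8 in EV-miR-93, with both mimic libraries below both others. Its ratio was 0.770 (95% interval 0.648 to 0.915) in EV-miR-17 against unexposed, 0.703 (0.591 to 0.836) in EV-miR-17 against scrambled EV and 0.798 (0.674 to 0.944) in EV-miR-93 against scrambled EV. In EV-miR-93 against unexposed the ratio was 0.874 (0.739 to 1.03), with 1 inside the interval. In the authors' log2 values Eef2k was at −0.21 in EV-miR-17 against unexposed, short of the threshold, at −0.17 in EV-miR-17 against scrambled EV and at 0.11 in EV-miR-93 against scrambled EV, so the direction turned in the last pair. The call in EV-miR-93 against scrambled EV was also lost with TMM scaling, with total counts and with the GC correction. Its 3' UTR holds no GCACTTT.

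The rule on symbols also took in 4 genes that are not translation factors: Eif2c1 to Eif2c4 are earlier names of the argonaute genes, whose proteins hold miRNAs. Eif2c2, the highest per kb of exon (201), showed 2889.6 normalized counts in unexposed, 2869 in scrambled EV, 2851 in EV-miR-17 and 2664 in EV-miR-93. Eif2c1 had 1309.9 in unexposed, 1335 in scrambled EV, 1214 in EV-miR-17 and 1183 in EV-miR-93. Eif2c3 had 690.3 in unexposed, 480.2 in scrambled EV, 612 in EV-miR-17 and 577 in EV-miR-93, and Eif2c4 had 425 in unexposed, 467 in scrambled EV, 343 in EV-miR-17 and 352 in EV-miR-93. All 4 had log2 ratios below 0 against unexposed in both mimic libraries, between −0.31 and −0.02, and none of these passed the threshold. Eif2c3 (chromosome 4, 126331704 to 126429556) was lower in scrambled EV against unexposed (ratio 0.696, 95% interval 0.613 to 0.788), and Eif2c4 was lower in EV-miR-17 and EV-miR-93 against scrambled EV with ratios of 0.733 (95% interval 0.636 to 0.845) and 0.754 (0.654 to 0.869). Eif2c3 was also higher in EV-miR-17 against scrambled EV (ratio 1.28, 95% interval 1.13 to 1.44), a call lost with the GC correction (log2 ratio 0.10). With the GC correction Eif2c4 was lower against unexposed in both mimic libraries and Eif2c3 in EV-miR-93. Without these 4 genes, 57 tested members remained. Against scrambled EV, 18 of them were higher in EV-miR-17 and 15 in EV-miR-93, beside 11.9% and 12.1% of all tested genes.

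Of the 7 members lower in scrambled EV than in unexposed, 6 were genes under 42% GC. The deposited table gives the GC content of each gene span, from 34.9% (Eif2s3y) to 56.6% (Eef2) for the tested members. Across the 61 members, Spearman's rho between GC content and log2 ratio was 0.39 in scrambled EV against unexposed, −0.46 in EV-miR-17 against unexposed, −0.44 in EV-miR-93 against unexposed, −0.53 in EV-miR-17 against scrambled EV, −0.50 in EV-miR-93 against scrambled EV and 0.03 in EV-miR-93 against EV-miR-17. Over all tested genes it was 0.04, −0.29, −0.31, −0.24, −0.25 and −0.05 in the same order, so both mimic libraries also had higher ratios at low GC content against unexposed. These are correlations across genes that share their libraries, given as a description. In the 19 members under 42% GC, the median log2 ratio of EV-miR-17 to scrambled EV was 0.46 and 16 were higher, where the 3178 protein-coding genes under 42% had a median of 0.17 and 25.8% were higher. For scrambled EV against unexposed the same 19 had a median of −0.24 with 6 lower, and such protein-coding genes a median of −0.08 with 14.5% lower. In the 20 members of 42% to 48% the medians were 0.03 in scrambled EV against unexposed and −0.11 in EV-miR-17 against scrambled EV, and in the 22 members from 48% up they were −0.03 and −0.0034. The band edges were chosen after the values were seen.

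**Figure D4:**
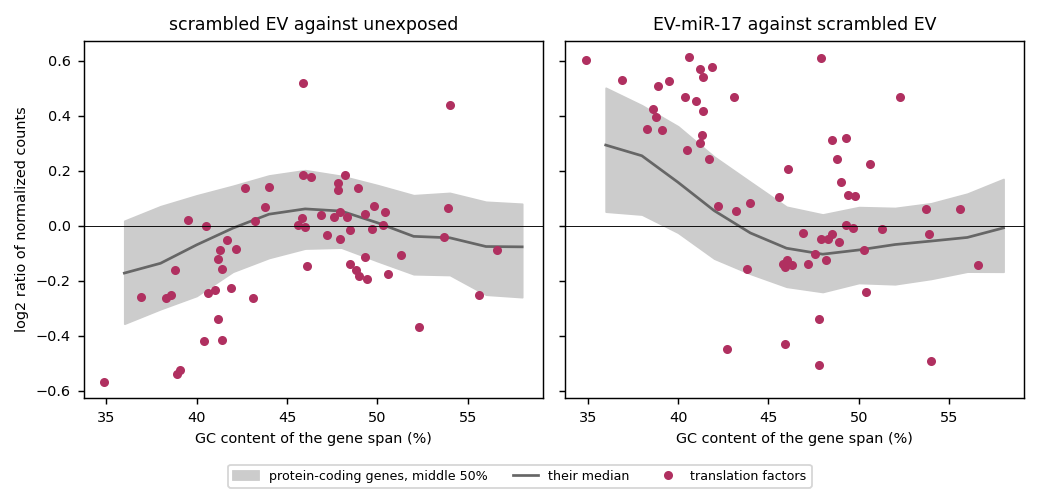
Log2 ratio of normalized counts against GC content of the gene span (%) for the 61 tested members (points), with the median (line) and middle 50% (band) of protein-coding genes in GC windows of 2 percentage points. Members under 42% GC lie mostly below 0 in scrambled EV against unexposed and above the band's median in EV-miR-17 against scrambled EV.

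When the trend with GC content was removed with a lowess curve over all tested genes, part of the calls went and others were added. In scrambled EV against unexposed 2 of 2 higher and 6 of 7 lower members kept their call. In EV-miR-17 against scrambled EV 7 of 19 higher and 4 of 5 lower members kept it, and in EV-miR-93 against scrambled EV 9 of 15 and 4 of 5. Higher calls absent without the correction were Eif6 and Eif4a3 in EV-miR-17, and Eif4a3 and Eif2b2 in EV-miR-93, each against scrambled EV. Eif4a3 was also called in both pairs with TMM scaling, with total counts and in the authors' log2 values. Against unexposed 2 of 4 higher members kept their call in EV-miR-17 and 0 of 3 in EV-miR-93. The part of read length, which was also unlike in scrambled EV, was not tested. Overlap with another gene is a further limit: 28 of the 63 members overlap a gene, 12 of them a protein-coding one.

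Genes that act on these factors were followed in 7 lists. Of the 6 genes for eIF2 kinases and phosphatase subunits, 1 was lower in scrambled EV against unexposed. This was Eif2ak2, the kinase PKR that responds to double-stranded RNA, with 1500 normalized counts in unexposed, 942 in scrambled EV, 1502 in EV-miR-17 and 1534 in EV-miR-93 (log2 ratio −0.67). It was higher in both mimic libraries than in scrambled EV (0.67 and 0.70). Eif2ak3, the PERK kinase of the endoplasmic reticulum, had 509, 570.4, 414 and 443 normalized counts in the same order and was lower in both mimic libraries than in scrambled EV (log2 ratios −0.46 and −0.36). Of the 11 genes of mTORC1 and cap-binding control, 0 were called in any of the 6 pairs, with medians between −0.15 and 0.01. In the list of 4 for scanning helicases and reinitiation, Ddx3x, an X-linked RNA helicase, had 2346, 1608, 2753 and 2817 normalized counts and was lower in scrambled EV against unexposed (log2 ratio −0.54) and higher in both mimic libraries than in scrambled EV (0.78 and 0.81). Mcts1 of the same list, a factor of reinitiation, was higher against unexposed in EV-miR-17 (0.35) and EV-miR-93 (0.33).

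In the list of 6 for release and recycling, Abce1, which splits ribosomes after termination, had 896 normalized counts in unexposed, 703 in scrambled EV, 1161 in EV-miR-17 and 1171 in EV-miR-93. It was lower in scrambled EV and higher with either mimic than in unexposed (log2 ratios −0.35, 0.37 and 0.39), and Hbs1l was the other member higher in EV-miR-17 against unexposed. Against scrambled EV, Abce1 was higher in both mimic libraries (0.72 and 0.74), and the release factor genes Gspt1 (0.32) and Gspt2 (0.59) were higher in EV-miR-17. Of the 5 poly(A) binding genes, Paip2b alone was called, higher in scrambled EV and EV-miR-17 than in unexposed (0.53 and 0.37). Of the 9 genes of eEF2 and eIF5A modification, 7 matched by symbol, and 1, Dohh, was lower in scrambled EV against unexposed (−0.35) and higher in EV-miR-93 against scrambled EV (0.40). Among the 9 mitochondrial factors, 0 were called in scrambled EV against unexposed, where 8.22% of all tested genes were higher and 8.70% lower. In EV-miR-17 against unexposed 2 were higher, Tufm (0.41) and Mtrf1l (0.54), beside 4.90% of all tested genes. Against scrambled EV, Tufm was higher in both mimic libraries (0.73 and 0.58), Mtrf1l in EV-miR-17 (0.67) and Mtrf1 in EV-miR-93 (0.38).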

How the data were processed

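Groups were taken from the transfection label, with 1 library of RNA pooled from 4 biological replicates per group. Library preparation was the Ion Total RNA-Seq protocol (kit version v2), per the labels. The authors deposited read counts of 38087 genes as whole numbers without normalization, per the file headers. It also has GC content in percent and the average coverage of a gene, a deposited signal that is not adjusted for depth, per the file headers. A second deposited table holds the authors' log2 values, in which the median over the 4 libraries was 0 for 38087 genes within 1e-05. The submitters' processing notes name the mm10 build and DESeq. Aligner, annotation and use of strand: not given in the sources used here. Gene length equalled the whole span in 38087 genes, so counts may include reads in introns.

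Counts were divided by median-of-ratios size factors of 0.949 (unexposed), 0.854 (scrambled EV), 1.13 (EV-miR-17) and 1.10 (EV-miR-93). Log2 ratios used a pseudocount of 1, and the ratio of counts has an exact conditional (Clopper-Pearson) interval at 95%. Because reads carried no molecular identifiers and can be PCR copies, intervals and floors cover counting error only. Coordinates are those of the deposited table. Exon lengths and 3' UTRs came from GENCODE M21, promoters and miRNAs from RefSeq. Bases per read were coverage times span divided by reads. Scripts used Python 3.11.15, pandas 2.3.3, scipy 1.17.1 and statsmodels 0.14.6 (lowess fraction 0.3), and edgeR 4.0.16 for TMM scale factors. The calling rule was run on simulated Poisson counts. These hold counting error only, so that run cannot speak to spread between cultures, GC content or read length.

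The members and lists were chosen with earlier results of these data known. Named genes were members past 2-fold, up to 8 per direction and pair among those past a log2 ratio of 0.32 with a mean of at least 100 normalized counts, the highest member of each role, copies that share a role, and up to 4 per list. Others are named where a count needed it, after their values were seen. Alternatives were TMM scaling, total counts, a mean of at least 100, no filter, a pseudocount of 5, the authors' values, GC correction, leaving out members that overlap another gene, and leaving out the argonaute genes, the last chosen after seeing the data.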

Additional observations from a re-analysis of the deposited data

How the results depend on the processing

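No paired analysis was possible because each group is 1 library and the labels give no replicate numbers, and no replicate could be left out for the same reason. TMM scaling, a mean of at least 100, no filter, a pseudocount of 5 and leaving out the argonaute genes kept every count of higher or lower members within 1.5 times its reported value. Of 150 recomputed counts and medians, 129 stayed within their limits and 21 did not. Total counts gave 5 members higher in EV-miR-93 against unexposed, beside 7.26% of all tested genes. The authors' log2 values, which have no interval, gave 8 of 61 higher in EV-miR-17 against unexposed (beside 12.8% of all genes), 5 higher and 2 lower in EV-miR-93 against unexposed (12.9% and 11.1%), 2 lower in EV-miR-17 against scrambled EV (16.4%) and 3 lower in EV-miR-93 against EV-miR-17 (8.90%). They also reversed Eef1b2 in EV-miR-17 (0.097) and EV-miR-93 (0.012) and Eef2k in EV-miR-93 (0.11), each against scrambled EV, and the cause was not tested. GC correction gave 2 higher and 2 lower in EV-miR-17 against unexposed (beside 4.00% and 3.86%), 0 higher and 2 lower in EV-miR-93 against unexposed (3.94% and 4.41%), and 9 higher in EV-miR-17 against scrambled EV (7.36%). With the 33 tested members that overlap no gene, fewer could be called by construction. Scrambled EV against unexposed had 1 higher and 3 lower, beside 8.22% and 8.70% of all tested genes. Against unexposed, EV-miR-17 had 1 higher and 0 lower (4.90% and 4.12%) and EV-miR-93 had 1 higher (5.12%). Against scrambled EV, 9 of the 33 were higher and 1 lower in EV-miR-17 (11.92% and 10.04%). For EV-miR-93 against scrambled EV these were 6 and 1 (12.15% and 9.52%). EV-miR-93 against EV-miR-17 had 0 lower (2.14%). The shares of all tested genes were not recomputed without overlapping genes. Depth limits the low members most: the 95% interval of the ratio of Eif4ebp3 in EV-miR-17 to unexposed spans 1.15 to 1.91.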

Other observations

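Reads at annotated copies of member genes that carry pseudogene names were counted apart from the members. Eif3s6-ps1, named as a copy of the eIF3 subunit gene Eif3e under its earlier symbol, had 124 normalized counts in unexposed, 92.5 in scrambled EV, 142 in EV-miR-17 and 150.3 in EV-miR-93. Eif3s6-ps2 had 304 in unexposed, 330.3 in scrambled EV, 280.4 in EV-miR-17 and 314 in EV-miR-93. The first was lowest in scrambled EV, as Eif3e was, and the second was highest there. Eif5al3-ps, named for an eIF5A-like sequence, had 3213 normalized counts in unexposed, 4039 in scrambled EV, 2855 in EV-miR-17 and 3047 in EV-miR-93, while Eif5a itself stayed between 4380 and 4631.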
